A study of Mus musculus with 24 samples.

Results

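Hippocampal RNA of Tsc1-Cre+ mice taken on day 6 was compared with that of Tsc1-Cre+ mice taken on day 4, the step between 2 time points that both precede seizures in this model. The 8 mice, 4 on each day, were chosen by the genotype and day in their sample titles and are 8 of the 24 mice of the series. All of them were Tsc1 fl/fl and carried the Camk2a-CreERT2 transgene, in which Camk2a regulatory sequence drives a Cre recombinase that tamoxifen activates, so that Tsc1 is removed only from CAMK2A-expressing neurons. Every mouse of the series received tamoxifen (4 daily injections by the study's methods), none of these 8 received another drug, and the mice were 16 to 22 weeks old and of both sexes. Days are counted from the start of tamoxifen, so day 6 mice had a longer time since deletion and also a longer time since their last injection than day 4 mice, and these cannot be told apart. The animal numbers of the day 4 mice come from other series than those of the day 6 mice, so the day and the series of animals cannot be told apart either. The other 16 mice are given below only for their levels: 4 Tsc1-Cre- littermates (Tsc1 fl/fl without Cre, tamoxifen, day 8), 4 Tsc1-Cre+ mice each on day 8 and day 13, and 4 Tsc1-Cre+ mice given 10 mg/kg rapamycin daily from day 4 and taken on day 13 (Tsc1-Cre+-Rap 4).

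TSC1 and TSC2 form a complex that restrains mTORC1, a kinase complex that couples nutrients and growth factors to cell growth, and rapamycin inhibits mTORC1. Among the programs known to lie downstream of mTORC1 are cholesterol synthesis, which the transcription factor SREBP2 (Srebf2) drives from sterol regulatory elements in promoters, and the amino acid response, in which ATF4 drives asparagine synthesis, one-carbon metabolism, amino acid transport and tRNA charging from CARE sites. Glucocorticoid hormones act in neurons and glia through the receptors Nr3c1 and Nr3c2, which bind glucocorticoid response elements near genes such as Sgk1, Fkbp5 and Tsc22d3.

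The promoters below belong to genes that the comparison turns on. Those of Hmgcs1, Chac1, Sgk1 and Fam107a hold the site letters of 1 of these 3 programs each, and that of Mvd holds CCAAT, the site letters of NF-Y, without those of the sterol regulatory element. They were picked for these letters, and for a gene with several annotated starts a start that holds them was taken. All are RefSeq sequences of build GRCm38.p6 upstream of the annotated start, 5′ to 3′ on the gene's strand, with the motif matches in capitals. In the promoters of Hmgcs1 (chr13:119690101-119690350, plus strand) and Mvd (chr8:122443423-122443522, minus strand), both of the mevalonate pathway, the capitals mark TCACNCCAC, the letters searched for a sterol regulatory element, and CCAAT or its reverse complement.
Hmgcs1: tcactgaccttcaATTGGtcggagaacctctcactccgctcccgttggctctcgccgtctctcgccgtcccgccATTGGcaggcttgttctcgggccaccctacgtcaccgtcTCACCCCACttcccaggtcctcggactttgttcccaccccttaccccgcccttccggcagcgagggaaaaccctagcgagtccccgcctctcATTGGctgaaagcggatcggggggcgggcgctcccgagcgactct
Mvd: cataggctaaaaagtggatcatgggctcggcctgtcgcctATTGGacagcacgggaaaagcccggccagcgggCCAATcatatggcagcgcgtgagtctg
For Chac1 (chr2:119351042-119351221, plus strand), a glutathione-degrading enzyme and ATF4 target, the capitals mark the reverse complement of TGATGNAA, the letters searched for a CARE site.
Chac1: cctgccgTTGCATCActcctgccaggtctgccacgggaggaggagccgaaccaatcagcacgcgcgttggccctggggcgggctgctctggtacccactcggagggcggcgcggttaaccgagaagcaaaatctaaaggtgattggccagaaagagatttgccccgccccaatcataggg
Next to them stand 2 promoters of glucocorticoid-responsive genes, Sgk1 (chr10:21993690-21993889, plus strand, 1 of several annotated starts) and Fam107a (chr14:8309798-8309907, minus strand, also not the only annotated start). In them the capitals mark GNACA followed after 3 bases by TGTNC, the letters searched for a glucocorticoid response element.
Sgk1: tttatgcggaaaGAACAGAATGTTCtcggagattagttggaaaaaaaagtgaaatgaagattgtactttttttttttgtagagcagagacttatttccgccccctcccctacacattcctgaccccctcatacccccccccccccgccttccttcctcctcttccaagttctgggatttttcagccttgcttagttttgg
Fam107a: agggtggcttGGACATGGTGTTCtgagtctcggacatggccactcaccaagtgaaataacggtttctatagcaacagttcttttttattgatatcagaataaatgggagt

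In these 8 mice the 3 programs moved as follows. Genes of sterol synthesis were higher on day 6, with 14 of 24 called, genes of the ATF4 response were higher, with 8 of 31 called, and genes of the glucocorticoid response were lower, with 6 of 25 called. The tRNA synthetases and the nuclear genes of oxidative phosphorylation were also higher, by smaller folds, and genes of homeostatic astrocytes were lower. Counts were tested with edgeR's quasi-likelihood test on the 8 mice, after its filter on low counts and TMM normalization, with Benjamini-Hochberg adjustment, and every adjusted p below is from this fit. Of 25184 genes tested, 152 were called (0.604%), which here means an adjusted p under 0.05 together with a log2 fold change beyond 0.5 in either direction. Of these, 62 were higher on day 6 (0.246% of all genes tested) and 90 lower (0.357%). Without a minimum fold, 588 were higher (2.33%) and 454 lower (1.80%) at an adjusted p under 0.05. An unadjusted p under 0.05 was reached by 4667 of the 25184 genes, to be set beside the unadjusted counts of the lists below. The 4 mice of each day did not overlap for 3030 genes (12%), among them 145 of the 152 called. The median log2 fold change over all genes tested was -0.01, and 33 called genes changed more than 2-fold.

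**Figure D1:**
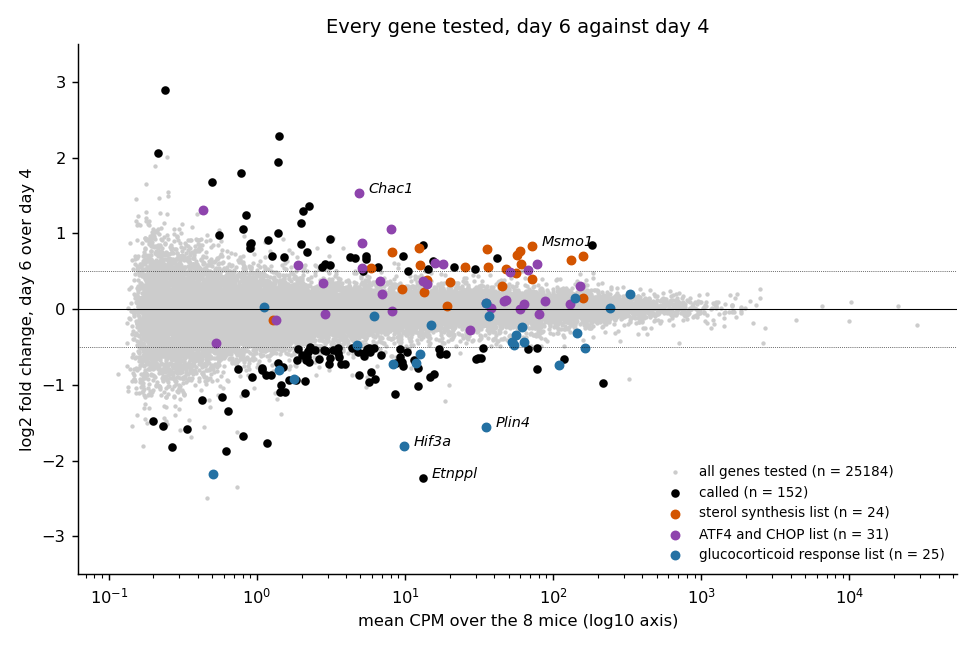
Each point is 1 of the 25184 genes tested, with the mean CPM over the 8 mice on a log10 axis and the log2 fold change of day 6 over day 4 on the vertical axis. Black points mark the called genes, 62 above 0 and 90 below 0. Colours drawn over them mark the members of the sterol synthesis, ATF4 and CHOP, and glucocorticoid response lists, called or not. Most of the other genes lie close to 0, around the median of -0.01.

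Total counts were 56239855 to 60914278 on day 4 and 51363380 to 62429111 on day 6, and pairwise correlations of log2 CPM among the 8 mice were 0.993 to 0.997. Levels are given as CPM, counts scaled by the library totals and the TMM factors, for mice A to D of each day. The letters name different animals on the 2 days. The hippocampal markers Prox1 of dentate granule cells and Wfs1 of CA1 pyramidal cells were present in every mouse, at 117 to 154 CPM on day 4 and 105 to 130.1 CPM on day 6 and at 82.1 to 91.9 CPM on day 4 and 77.5 to 93.1 CPM on day 6. Dissection differed between mice: Ttr, the main transcript of choroid plexus, was 602, 619, 8.76 and 932 CPM on day 4 and 5.81, 1017, 695 and 653 CPM on day 6, and the summed level of the 18 choroid plexus markers was 197 to 1783 CPM on day 4 and 212 to 1965 CPM on day 6. None of the 18 reached an unadjusted p under 0.05 by edgeR or an adjusted p under 0.05 by DESeq2. Day 4 mouse D and day 6 mouse A had high Xist, and 178 genes were called without both. Day 4 mouse C and day 6 mouse A were the mice of lowest Ttr: without both, 58 genes were called, and without day 4 mouse C alone, 98. In bulk tissue, fewer cells of a type and less RNA per cell cannot be told apart. The log2 fold change of protein-coding genes ran with GC content (Spearman's rho across genes -0.23, genes not being independent replicates), and a fit with a GC correction called 159 genes.

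Tsc1 itself (ENSMUSG00000026812.16, chromosome 2, 28641228 to 28691167, plus strand) was 77.3, 79, 81.7 and 75.5 CPM on day 4 and 73.6, 73.9, 69.7 and 72.9 CPM on day 6, against 105 ± 3.21 CPM (SD, n = 4) in Tsc1-Cre- mice. All 8 mice lay below the control mean, and the day 6 mice lay below the day 4 mice without overlap. The log2 fold change between the days was -0.12 (adjusted p = 0.0777), so it did not pass across all genes, and the two-sided exact permutation test over the 70 arrangements gave p = 0.0286, the smallest it can give. Camk2a, whose regulatory sequence drives Cre, was 2590, 2444, 2292 and 2180 CPM on day 4 and 2088, 1975, 2236 and 2166 CPM on day 6, with overlap between the days (log2 fold change -0.18, adjusted p = 0.0576). Of 28 genes of the TSC complex and mTORC1 core, 3 were higher at an adjusted p under 0.05, beside 2.33% of all genes tested: the leucine sensor Sesn2, which is also an ATF4 target, Rragc (log2 fold change 0.17, adjusted p = 0.0404), a GTPase that recruits mTORC1 to lysosomes, and Rheb (log2 fold change 0.14, adjusted p = 0.0419), its direct activator. The list went both ways, with 16 positive and 12 negative log2 fold changes and a median of 0.04. No member was lower at an adjusted p under 0.05 by edgeR, while DESeq2 passed 5 higher and 2 lower. By edgeR 1 member passed without day 4 mouse B, day 4 mouse C or day 6 mouse C.

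Cholesterol synthesis had the largest share of passing members among the lists plotted. Of 24 genes listed and tested, 23 had a positive log2 fold change, 19 were higher at an adjusted p under 0.05 (79.2%, against 2.33% of all genes tested), none was lower, and the 4 mice of each day did not overlap for 21 (12% of all genes). The median log2 fold change was 0.55, and the summed level was 818 to 967 CPM on day 4 and 1270 to 1424 CPM on day 6.

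Hmgcs1 (ENSMUSG00000093930.2, chromosome 13, 119690379 to 119708260, plus strand), the synthase at the entry of the pathway, whose promoter above holds the sterol regulatory element letters, was 123, 123, 100 and 133 CPM on day 4 and 196, 204, 207 and 179 CPM on day 6. The days did not overlap, and day 4 mouse C was the lowest mouse. It rose 1.62-fold (log2 fold change 0.70, standard error 0.0712, adjusted p = 0.000192).

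The mevalonate branch gave Mvd (9.27, 9.79, 7.59 and 9.38 CPM on day 4 and 14.4, 17.8, 16.7 and 14.7 CPM on day 6), which makes isopentenyl diphosphate and whose promoter is shown above, and Idi1, its isomerase (4.35 to 6.95 CPM on day 4 and 9.96 to 11 CPM on day 6). Both were called, at log2 fold changes of 0.81 and 0.75. Fdps, which makes farnesyl diphosphate, Fdft1, which makes squalene, and Sqle, which oxidizes it, rose by log2 fold changes of 0.55, 0.72 and 0.76. In this branch Mvk passed with a smaller fold (log2 fold change 0.39, adjusted p = 0.00811) and Pmvk, the kinase between Mvk and Mvd, did not (log2 fold change 0.03, adjusted p = 0.816).

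The steps from lanosterol to cholesterol followed. Msmo1 (chromosome 8, 64718139 to 64733792, minus strand), the C4 methylsterol oxidase, was 56.7, 52.2, 41.6 and 55.7 CPM on day 4 and 100.1, 96.9, 90.9 and 83.9 CPM on day 6 (log2 fold change 0.84, standard error 0.0808, adjusted p = 0.000183), with day 4 mouse C lowest and no overlap. Cyp51 (log2 fold change 0.52), Nsdhl (0.58) and Hsd17b7 (0.55) of demethylation were called too. Sc5d (log2 fold change 0.40), Dhcr7 (0.36) and Lss (0.31), which closes the first ring system, were higher at an adjusted p under 0.05 by less than the fold minimum, while Ebp (0.27) and Tm7sf2 (0.22) did not pass. Insig1, the sterol-sensing brake on SREBP processing, was 50.4, 49.8, 46.1 and 47.7 CPM on day 4 and 74.1, 82.5, 72.5 and 65.5 CPM on day 6 (log2 fold change 0.59, adjusted p = 0.000183), and the sterol carrier Stard4 rose by 0.56 on the log2 scale.

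Srebf2, which encodes SREBP2, was 155, 152, 143 and 154 CPM on day 4 and 157, 175, 169 and 174 CPM on day 6, without overlap but short of the threshold (log2 fold change 0.15, adjusted p = 0.0707). Outside the list, Acat2, which makes the acetoacetyl-CoA that feeds the pathway, was called (16.5 to 18.5 CPM on day 4 and 24.2 to 27.5 CPM on day 6, log2 fold change 0.56, adjusted p = 0.000198). Of 14 genes of fatty acid synthesis none was called, though 8 had a higher level at an unadjusted p under 0.05 and DESeq2 called none at the same thresholds. At an adjusted p under 0.05 with any fold, 4 were higher, among them Fasn (log2 fold change 0.20, adjusted p = 0.00559) and Elovl6 (log2 fold change 0.24, adjusted p = 0.00705), and Srebf1, which encodes SREBP1, was lower (log2 fold change -0.23, adjusted p = 0.0389). Of these 14 genes 3 passed without day 6 mouse A or B.

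**Figure D2:**
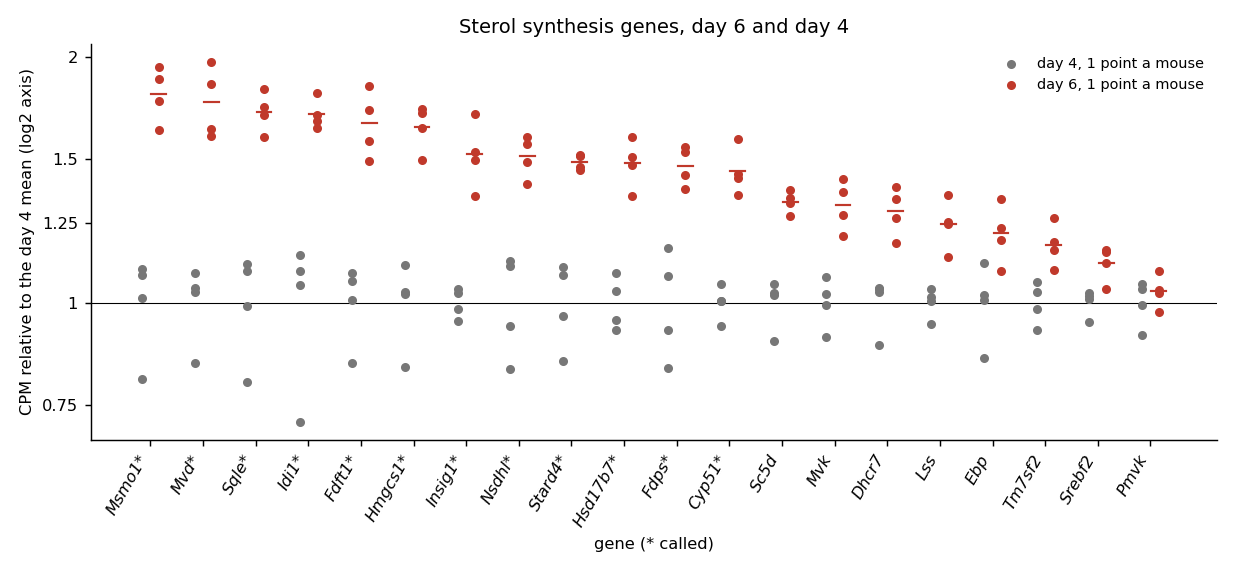
CPM of each mouse relative to the day 4 mean, on a log2 axis, for 20 of the 24 sterol synthesis genes in order of fold change, with day 4 mice in grey, day 6 mice in red and a bar at the day 6 mean. An asterisk marks 12 called genes, from Msmo1 at a log2 fold change of 0.84 to Cyp51 at 0.52, and the 2 days overlap for Ebp and Pmvk.

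In the other groups, given as levels with no test, Hmgcs1 was 135 ± 3.56 CPM (mean ± SD, n = 4) in Tsc1-Cre- mice, 269 ± 14.8 on day 8, 375 ± 112 on day 13 and 93.4 ± 10 under rapamycin. The day 4 mice stood within or below the range of the control mice, and the day 6 mice between day 4 and day 8. The sum over the 24 genes was 925 to 981 CPM in Tsc1-Cre- mice, 1580 to 1720 CPM on day 8 and 704 to 775 CPM under rapamycin. Every call of the list was higher on day 6 in each fit named here: 14 genes were called by DESeq2, 15 with the GC correction, 11 without day 4 mouse C, 12 without the 2 mice of lowest Ttr, and 8 when the spread was estimated over all 24 mice. Fdft1, Cyp51, Mvd, Hmgcs1 and Fdps overlap another annotated gene, and reads there may be shared.

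Of the 24 sterol genes, 16 have a promoter in the RefSeq table. CCAAT, the site of NF-Y, which acts beside SREBP2, was found on either strand in all 16 (100%), against 41.1% of 27025 genes over windows of 300 bases. The letters TCACNCCAC were in 1 of the 16, that of Hmgcs1, against 1.44% of all genes. TGATGNAA was in 1 of the 16, Idi1, and the glucocorticoid response element letters in none. These are matches of letters in a window and not sites shown to be bound. Fdft1, Fdps, Sqle and Stard4 were among those not matched.

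Genes of the ATF4 and CHOP response were higher as well. Of 31 genes tested of 33 listed, 24 had a positive log2 fold change and 8 were called, all higher, beside the 0.246% of all genes called higher. At an adjusted p under 0.05 with any fold, 12 were higher (2.33% of all genes were) and 1, Cbs of cysteine synthesis, was lower (log2 fold change -0.28, adjusted p = 0.0377). The median log2 fold change was 0.31, and the summed level of the list was 991 to 1003 CPM on day 4 and 1088 to 1263 CPM on day 6.

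Atf4 (ENSMUSG00000042406.8, chromosome 15, 80255184 to 80257541, plus strand), the transcription factor, was 56.8, 56.1, 53.6 and 54.8 CPM on day 4 and 81.5, 84.4, 80.9 and 71.7 CPM on day 6 (log2 fold change 0.51, standard error 0.0464, adjusted p = 0.000177). Each day 6 mouse lay above each day 4 mouse, and day 6 mouse D was the lowest of its group. The largest change of the list was that of Chac1 (chromosome 2, 119351229 to 119354381, plus strand), whose promoter is shown above: it was 2.7, 2.5, 2.34 and 2.42 CPM on day 4 and 6.87, 7.76, 9.42 and 5.14 CPM on day 6, a 2.9-fold rise (log2 fold change 1.54, standard error 0.153, adjusted p = 0.000183) with day 6 mouse C highest. Asns (chromosome 6, 7675169 to 7693254, minus strand), which makes asparagine, was 59.8, 65.3, 59.4 and 63 CPM on day 4 and 95, 89.4, 108 and 83.7 CPM on day 6, again with mouse C highest on day 6 and no overlap (log2 fold change 0.59, standard error 0.0625, adjusted p = 0.00021).

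Apart from Stc2, the other called members serve the supply of amino acids and one-carbon units or signal its lack. Mthfd2, a mitochondrial folate enzyme that shares its strand with the annotated gene Gm43890, was 6.27, 5.45, 3.93 and 5.1 CPM on day 4 and 9.57, 11.3, 12.8 and 9.66 CPM on day 6 (log2 fold change 1.05, adjusted p = 0.000624). Psph, which makes serine and overlaps Cct6a, rose by 0.60 and Sesn2, which restrains mTORC1 when leucine is short, by 0.60 on the log2 scale. Slc7a3, a transporter of cationic amino acids, was 3.16, 3.69, 3.47 and 4.04 CPM on day 4 and 5.89, 6.24, 10.2 and 4.18 CPM on day 6 (log2 fold change 0.87, adjusted p = 0.0265). Day 6 mouse D at 4.18 CPM lay just above the highest day 4 mouse, and the adjusted p stayed under 0.05 in 3 of the 8 fits that left out 1 mouse. Stc2, a secreted glycoprotein, was called too (log2 fold change 0.54, adjusted p = 0.0305) and kept its adjusted p in 4 of those 8 fits.

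Among members short of the fold minimum, Slc7a1 (log2 fold change 0.49, adjusted p = 0.000223), another cationic amino acid transporter, Shmt2 (log2 fold change 0.37, adjusted p = 0.0234), which passes serine carbons to folate, Nars (log2 fold change 0.31, adjusted p = 0.00186) and Ddit3 (log2 fold change 0.33, adjusted p = 0.0111), which encodes CHOP, were higher. Trib3, the pseudokinase that ATF4 and CHOP induce, had overlapping days and did not pass (0.316, 0.247, 0.144 and 0.282 CPM on day 4 and 0.824, 0.613, 0.817 and 0.225 CPM on day 6, log2 fold change 1.31, adjusted p = 0.0756). Atf3 did not pass either, at a log2 fold change of -0.45. In Tsc1-Cre- mice Chac1 was 2.09 ± 0.272 CPM (mean ± SD, n = 4), on day 8 24.4 ± 8.16, on day 13 36.3 ± 20.4 and under rapamycin 1.81 ± 0.528, and Asns was 55.9 ± 1.04, 188 ± 41.6, 251 ± 66.2 and 55.8 ± 4.73 CPM. Day 6 mice lay above control and rapamycin mice and below day 8 mice for both genes.

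The count of called members depended on the mice and the fit: it was 5 without day 4 mouse C and also without both mice of lowest Ttr, and 2 with the spread of all 24 mice. DESeq2 and the GC correction both called 8. TGATGNAA was found in the promoters of 7 of the 25 members with an entry (28.0%; Asns, Atf3, Chac1, Nupr1, Slc7a11, Trib3 and Vldlr), against 4.51% of all genes, so that of the 8 called members Chac1 and Asns held it. CCAAT was in 17 of the 25 (68.0%) and neither of the other motifs in any. Aldh1l2, Cth, Eif4ebp1, Nars, Slc7a3 and Slc7a5 were not matched.

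Genes that share metabolic roles with this list were tested in lists of their own, which hold some of the same genes. Of 19 cytosolic aminoacyl-tRNA synthetases, which charge tRNAs with amino acids, 18 had a positive log2 fold change and 11 were higher at an adjusted p under 0.05 (57.9%, against 2.33% of all genes), none was lower, and none reached the fold minimum. Gars was 98.8, 98, 91.9 and 94.5 CPM on day 4 and 125, 126, 142 and 116 CPM on day 6 (log2 fold change 0.40, standard error 0.0524, adjusted p = 0.000961), without overlap. Next came Cars (0.33), Yars (0.31), Nars (0.31) and Aars (0.30), while Qars was at -0.05 (adjusted p = 0.569). The summed level was 1280 to 1348 CPM on day 4 and 1483 to 1671 CPM on day 6, and the median log2 fold change 0.20. Without day 6 mouse C 7 passed, without day 4 mouse C 8, and with the spread of all 24 mice none, though DESeq2 passed 15.

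The lists that follow stand beside 2.33% of all genes tested that were higher and 1.80% that were lower at an adjusted p under 0.05, and 0.246% called higher. Of 22 genes of serine, asparagine, proline and one-carbon synthesis, 7 were higher and 2 lower at an adjusted p under 0.05. Besides Asns, Mthfd2, Psph and Shmt2 these were Aldh18a1 of proline synthesis (log2 fold change 0.36, adjusted p = 0.00441), Mthfd1l and Got2, and the lower ones were Cbs and Aldh1l1, an astrocyte folate enzyme. The list had 4 passing members without day 4 mouse C or day 6 mouse C and 5 without day 4 mouse B or day 6 mouse A. Of 22 amino acid transporters, 3 were higher and 1 was called, Slc7a3. None of them was called without day 4 mouse A, day 4 mouse C or day 6 mouse C, and 3 were without day 4 mouse D or day 6 mouse D. In translation initiation 4 of 24 were higher, led by the eIF2 subunit Eif2s2 (log2 fold change 0.30, adjusted p = 0.0028) and Eif3c (log2 fold change 0.22, adjusted p = 0.00777). Of the initiation genes 2 passed without day 4 mouse C or without day 6 mouse A, B or C. Among 16 heat shock chaperones 5 were higher, led by the mitochondrial pair Hspd1 (log2 fold change 0.26, adjusted p = 0.00664) and Hspe1 (log2 fold change 0.35, adjusted p = 0.00777). Only 2 of the chaperones passed without day 4 mouse B, day 6 mouse A or day 6 mouse C, and 3 without day 4 mouse C or day 6 mouse D. Among 25 genes of the unfolded protein response 2 were higher, Canx (log2 fold change 0.20, adjusted p = 0.0221) and Dnajb11 (log2 fold change 0.21, adjusted p = 0.0256), at a median of 0.05, and none passed without day 4 mouse B, day 4 mouse C or day 6 mouse C and 1 without day 6 mouse B.

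Genes of oxidative phosphorylation encoded in the nucleus, which build the complexes of the respiratory chain, had small positive changes: 33 of 33 had a positive log2 fold change, 14 were higher at an adjusted p under 0.05 (42.4%, against 2.33% of all genes), and the median was 0.15. Cox5a, a subunit of cytochrome c oxidase, was 21.5, 25.4, 25.4 and 24.7 CPM on day 4 and 34.4, 35.8, 34.4 and 29.2 CPM on day 6 (log2 fold change 0.45, adjusted p = 0.00265). Uqcrfs1, the iron-sulfur protein of complex III, was 53.2, 54.6, 54 and 54.7 CPM on day 4 and 63.9, 64.2, 65.7 and 59.5 CPM on day 6 (log2 fold change 0.21, adjusted p = 0.00672). The days did not overlap for either gene. Their sum was 3680 to 3884 CPM on day 4 and 3985 to 4228 CPM on day 6. Of 11 genes of the mitochondrial genome tested, none passed by edgeR at an unadjusted p under 0.05 or by DESeq2, and their median was 0.03. The nuclear count depended on single mice and on the fit: it was 4 without day 6 mouse C, 7 without day 4 mouse C, day 6 mouse A or day 6 mouse B, 8 without day 4 mouse D, 1 with the spread of all 24 mice and 21 by DESeq2.

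The lists of protein and organelle turnover gave 1 to 3 passing genes each, beside 2.33% of all genes higher and 1.80% lower. Of 25 proteasome genes 24 had a positive log2 fold change and 3 were higher, Psmd14 (log2 fold change 0.18, adjusted p = 0.0171) among them. Of 42 ribosomal protein genes 36 were positive and 2 passed, led by Rps2 (log2 fold change 0.23, adjusted p = 0.00874), and of 25 genes of ribosome biogenesis 24 were positive and 1, Wdr12, passed (log2 fold change 0.19, adjusted p = 0.036). Lysosomal and V-ATPase genes gave 3 of 28, led by the pump subunit Atp6v1h (log2 fold change 0.22, adjusted p = 0.00861), and autophagy genes gave 1 of 24, Atg13, which was lower (log2 fold change -0.27, adjusted p = 0.0233). These counts depended on the fit and on single mice. DESeq2 passed 6 proteasome, 6 lysosomal, 4 ribosomal protein and 3 ribosome biogenesis genes, all higher. For autophagy it passed 1 higher and 1 lower. With the spread of all 24 mice no gene of these lists passed. For the proteasome none passed without day 4 mouse B, day 6 mouse A or day 6 mouse C and 1 without day 4 mouse C or day 6 mouse B. For ribosomal proteins 1 passed without day 4 mouse D or without day 6 mouse A, B or C, and for ribosome biogenesis none passed except without day 4 mouse A or D. For the lysosome 1 passed without day 4 mouse B or C or day 6 mouse B, C or D, and 5 without day 4 mouse D. For autophagy none passed without day 4 mouse A, B or C or day 6 mouse A, B or C, 3 without day 4 mouse D and 2 without day 6 mouse D. Of 21 genes of oxidative stress and the metallothioneins, 2 were higher and 2 lower at an adjusted p under 0.05, and 2 were higher and 5 lower by DESeq2. At an unadjusted p under 0.05, 3 were higher and 7 lower. Hmox1, the heme oxygenase of the oxidative stress response, was called, at 3.44, 3.23, 2.98 and 3.3 CPM on day 4 and 5.55, 4.81, 5.68 and 4.93 CPM on day 6 (log2 fold change 0.68, adjusted p = 0.0026), and Gsr, glutathione reductase, was higher (log2 fold change 0.44, adjusted p = 0.0156).

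**Figure D3:**
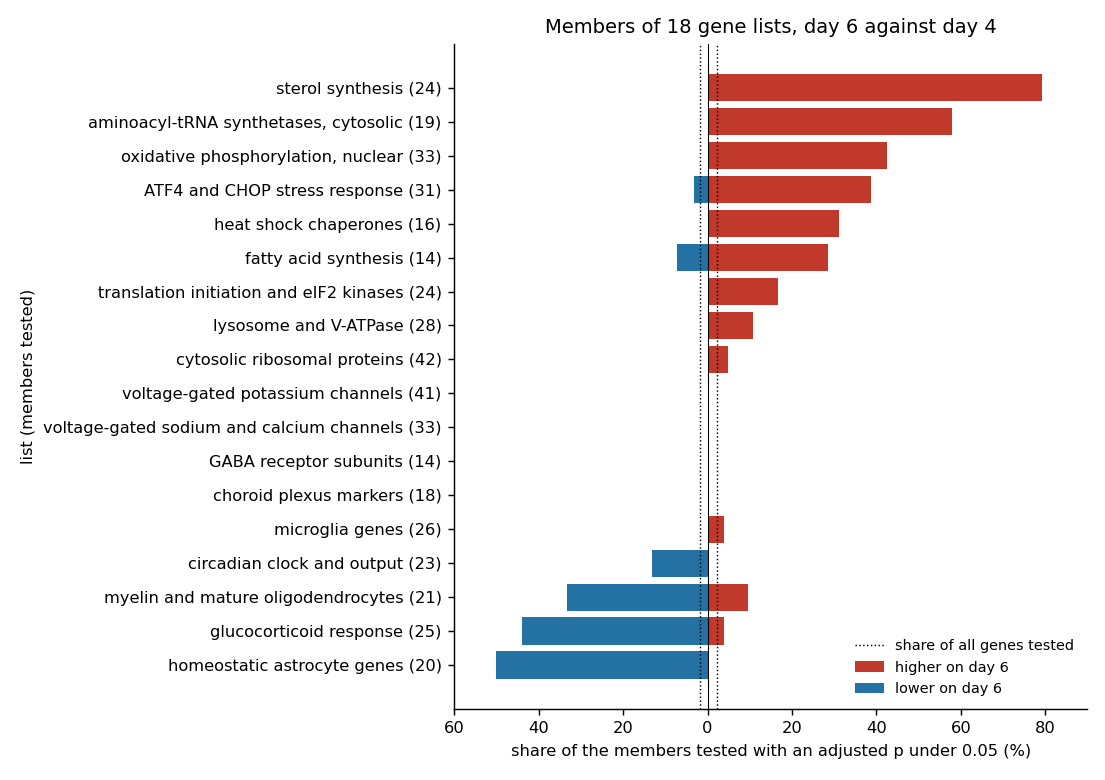
Share of the tested members of 18 gene lists with an adjusted p under 0.05 in the day 6 against day 4 comparison, in percent, with members higher on day 6 to the right and lower to the left. The longest bar to the right is that of sterol synthesis, at 79.2%, and the longest to the left that of homeostatic astrocyte genes, at 50%, against 2.33% and 1.80% of all genes.

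In the other direction, genes that glucocorticoids induce were lower on day 6. Of 25 tested, 20 had a negative log2 fold change, 6 were called lower (0.357% of all genes were) and 11 were lower at an adjusted p under 0.05 (44.0%, against 1.80% of all genes). The median log2 fold change was -0.44. The only member that passed upward was the mineralocorticoid receptor Nr3c2 (log2 fold change 0.20, adjusted p = 0.0148), and the glucocorticoid receptor Nr3c1 did not pass (log2 fold change 0.14, adjusted p = 0.0937).

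Hif3a (ENSMUSG00000004328.15, chromosome 7, 17031507 to 17062427, minus strand), an inhibitory member of the hypoxia-inducible factor family, was 14.2, 15, 20.1 and 12.1 CPM on day 4 and 3.92, 2.92, 7.18 and 3.62 CPM on day 6. Every day 6 mouse lay below every day 4 mouse, and mouse C was the highest of each day. It was called lower (log2 fold change -1.81, standard error 0.219, adjusted p = 0.000561). Plin4, a lipid droplet coat protein (chromosome 17, 56100591 to 56109803, minus strand), was 51.2, 50, 78.5 and 31.7 CPM on day 4 and 13.8, 14.3, 27.6 and 16.6 CPM on day 6 (log2 fold change -1.56, standard error 0.239, adjusted p = 0.00286). Here too mouse C was the highest of each day, and day 6 mouse C at 27.6 CPM came close to day 4 mouse D at 31.7 CPM.

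Sgk1 (chromosome 10, 21882184 to 21999903, plus strand), a kinase that regulates sodium transport and ion channels and whose promoter is shown above, was 132, 129.9, 155 and 129 CPM on day 4 and 78.4, 75, 108 and 69 CPM on day 6 (log2 fold change -0.74, standard error 0.105, adjusted p = 0.00171). Fam107a, an actin-binding protein that responds to stress hormones and whose promoter is also shown, was 184, 203, 216 and 165 CPM on day 4 and 134, 128, 141 and 142 CPM on day 6 (log2 fold change -0.51, standard error 0.0666, adjusted p = 0.000916). Neither gene overlapped between the days. Pdk4, which limits pyruvate use in mitochondria, was 13.2, 14.7, 18 and 12.9 CPM on day 4 and 7.47, 9.49, 10.7 and 8.74 CPM on day 6 (log2 fold change -0.71, adjusted p = 0.004), and Sult1a1, a sulfotransferase that overlaps the gene Sgf29, was 8.09, 11.9, 12.8 and 8.14 CPM on day 4 and 6.06, 5.97, 6.93 and 6.04 CPM on day 6 (log2 fold change -0.73, adjusted p = 0.01).

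Lower by less than the fold minimum were Mertk (log2 fold change -0.48, adjusted p = 0.00021), a receptor for the uptake of cell debris, Tsc22d3 (log2 fold change -0.43, adjusted p = 0.00351), which encodes the glucocorticoid-induced leucine zipper protein, Zbtb16 (log2 fold change -0.32, adjusted p = 0.00777), the clock gene Per1 (log2 fold change -0.34, adjusted p = 0.00325) and the metallothionein Mt1 (log2 fold change -0.44, adjusted p = 0.0068). Fkbp5, the cochaperone of the glucocorticoid receptor, overlapped between the days and did not pass (68.3, 71.4, 67.6 and 59.5 CPM on day 4 and 58.5, 50.5, 64.1 and 55 CPM on day 6, log2 fold change -0.24, adjusted p = 0.0603). Dusp1, Klf9, Ddit4, Errfi1 and Angptl4, which are also induced by glucocorticoids, had log2 fold changes between -0.09 and 0.08 and did not pass. Lcn2 had the lowest log2 fold change of the list, -2.17, with overlapping mice and an adjusted p of 0.28.

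**Figure D4:**
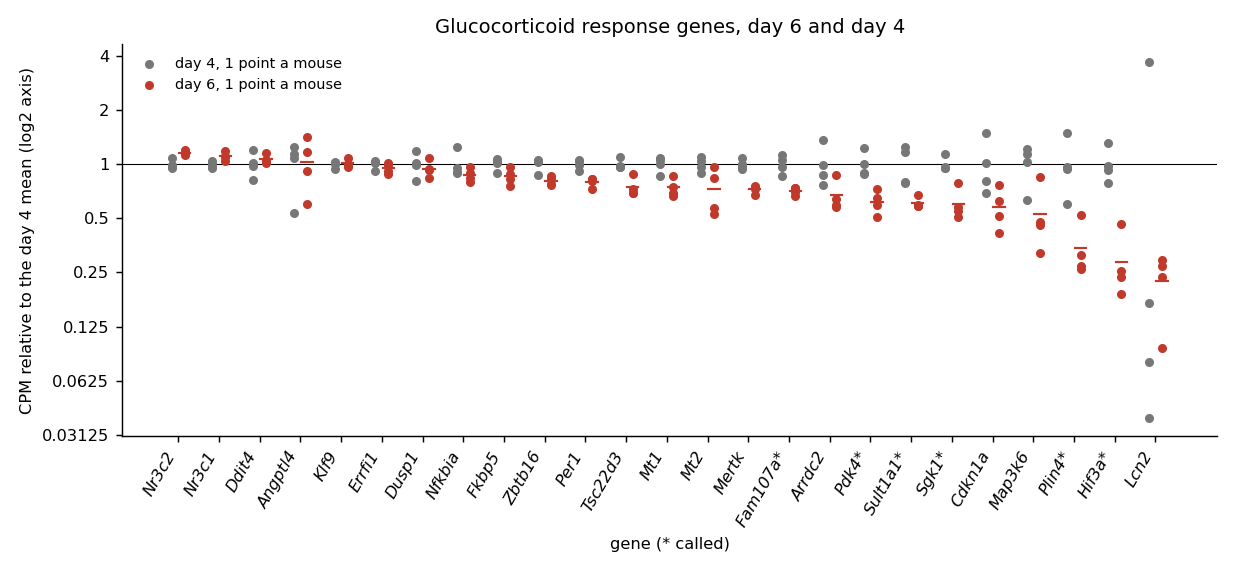
CPM of each mouse relative to the day 4 mean, on a log2 axis, for the 25 glucocorticoid response genes in order of fold change, with day 4 mice in grey, day 6 mice in red and a bar at the day 6 mean. An asterisk marks the 6 called genes, of which Hif3a and Plin4 fell most, and the wide scatter of Lcn2 on day 4 comes from 1 mouse far above the other 3.

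Levels outside the 2 days did not follow the order seen for sterol and ATF4 genes. Hif3a was 4.87 ± 1.3 CPM (mean ± SD, n = 4) in Tsc1-Cre- mice, 4.13 ± 1.27 on day 8, 9.74 ± 3.68 on day 13 and 22.3 ± 2.5 under rapamycin, and Sgk1 was 77.7 ± 15.4, 84.6 ± 6.7, 154 ± 27.9 and 179 ± 17 CPM in the same order. For both genes the day 4 mice stood above the control mice and the day 6 mice at about the control level, with the rapamycin group highest. The sum over the list was 1447 to 1517 CPM in controls, 1572 to 1823 CPM on day 4, 1441 to 1596 CPM on day 6 and 1851 to 1935 CPM under rapamycin, so day 4 and day 6 overlapped in the sum. These levels were not tested.

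The number called was 8 by DESeq2, 5 without day 4 mouse C, 10 without day 4 mouse D or without day 6 mouse C, 4 without both mice of lowest Ttr and 3 with the spread of all 24 mice, and every one of these calls was lower on day 6. The letters of the glucocorticoid response element, GNACA and TGTNC with 3 bases between, were in the promoters of 4 of 22 members with an entry (18.2%; Fam107a, Map3k6, Mt1 and Sgk1), against 0.537% of all genes, and CCAAT in 12 of 22 (54.5%). Angptl4, Nr3c1 and Zbtb16 were not matched. In the list of 23 circadian genes, which shares Per1, 3 were lower at an adjusted p under 0.05 (1.80% of all genes were), Per1, Per3 (log2 fold change -0.39, adjusted p = 0.00466) and Nr1d1 (log2 fold change -0.39, adjusted p = 0.0176). Of 18 genes of the estrogen and tamoxifen response 2 were called lower (0.357% of all genes were), Sult1a1 and Xdh, a purine-oxidizing enzyme (11.7 to 12.7 CPM on day 4 and 7.54 to 10.2 CPM on day 6, log2 fold change -0.56, adjusted p = 0.00379).

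**Figure D5:**
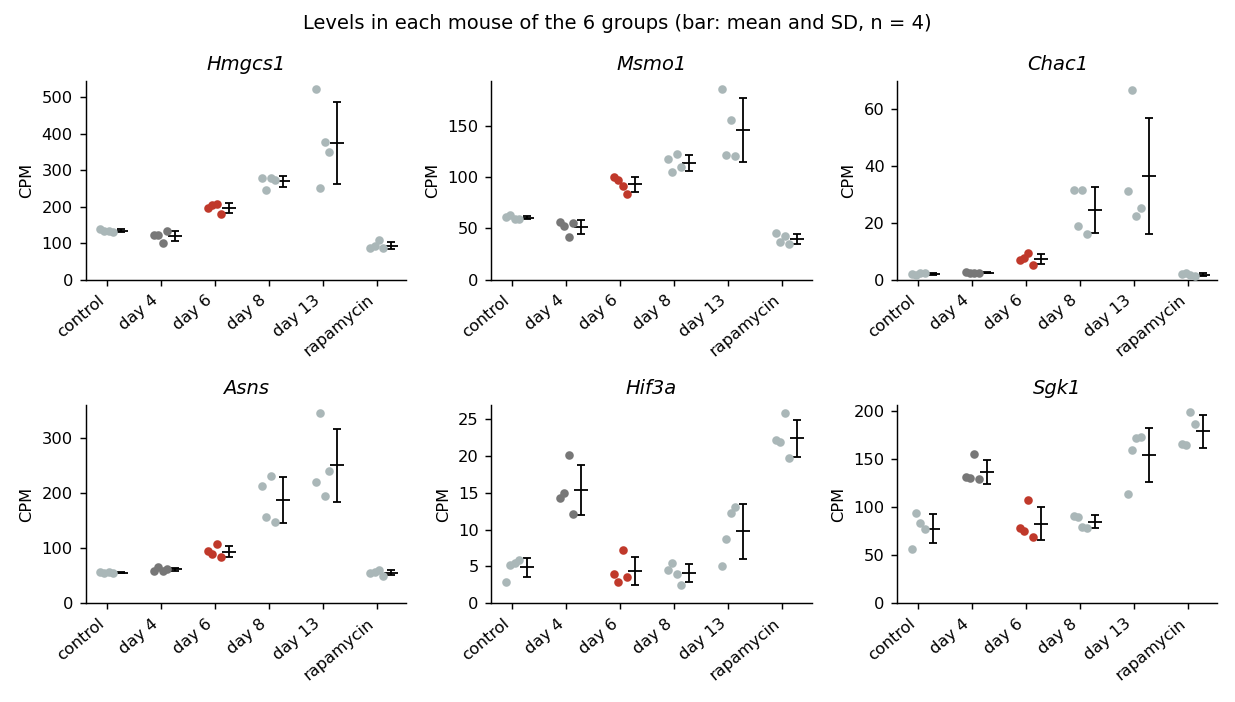
CPM of each mouse in the 6 groups, with the mean and SD (n = 4) beside the points, for Hmgcs1, Msmo1, Chac1, Asns, Hif3a and Sgk1; the vertical axes start at 0. Day 6 mice, in red, lie above day 4 and below day 8 mice in mean for the first 4 genes, while Hif3a and Sgk1 are higher on day 4 and under rapamycin than on day 6.

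Many astrocyte genes were lower on day 6. Of 20 genes of homeostatic astrocytes, 18 had a negative log2 fold change and 10 were lower at an adjusted p under 0.05 (50%, against 1.80% of all genes), with a median of -0.16. Gjb6, the gap junction protein connexin 30, was the member called, at 39.5, 40, 46.1 and 32.9 CPM on day 4 and 23, 24.2, 28.9 and 26.4 CPM on day 6 (log2 fold change -0.64, standard error 0.0892, adjusted p = 0.00146), without overlap. Lower by smaller folds were Clu (log2 fold change -0.33, adjusted p = 0.000775), the growth factor receptor Fgfr3 (log2 fold change -0.31, adjusted p = 0.00179), Glul (log2 fold change -0.25, adjusted p = 0.00232), which makes glutamine, the glutamate transporter Slc1a2 (log2 fold change -0.15, adjusted p = 0.0136) and Apoe (log2 fold change -0.21, adjusted p = 0.0188), while the water channel Aqp4 did not pass (log2 fold change 0.18, adjusted p = 0.392). Ndrg2, an astrocyte gene outside the list and named after its values were seen, had the smallest p of all genes, at mean levels of 321 CPM on day 4 and 241 CPM on day 6 (log2 fold change -0.42, adjusted p = 7.43e-05). The summed level was 9493 to 9796 CPM on day 4 and 8461 to 8804 CPM on day 6, beside 9397 to 9862 CPM in Tsc1-Cre- mice. Without day 4 mouse C, day 6 mouse A or day 6 mouse C 7 members passed, without both mice of lowest Ttr 5, and with the spread of all 24 mice 1.

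Etnppl (ENSMUSG00000019232.14, chromosome 3, 130617448 to 130637521, plus strand), an enzyme of phospholipid metabolism that astrocytes express, had the largest fall among the genes named by size. It was 17.9, 22, 38.5 and 8.09 CPM on day 4 and 2.77, 4.05, 7.98 and 3.81 CPM on day 6, with mouse C the highest of each day, and was called lower (log2 fold change -2.23, standard error 0.38, adjusted p = 0.00565). The days did not overlap, but day 6 mouse C at 7.98 CPM lay just below day 4 mouse D at 8.09 CPM. Other called genes with known roles in astrocytes were Prodh (log2 fold change -0.65, adjusted p = 0.000775), which degrades proline, Agt (log2 fold change -0.67, adjusted p = 0.00861), the angiotensin precursor, and Sdc4 (log2 fold change -0.53, adjusted p = 0.000192), a cell surface proteoglycan. Of 20 reactive astrocyte genes 1 passed and was lower (1.80% of all genes were), the complement gene C4b. It was 34.9, 32.2, 36.5 and 44.7 CPM on day 4 and 23.6, 22.9, 22.4 and 25.6 CPM on day 6 (log2 fold change -0.66, adjusted p = 0.000722). Without day 4 mouse D or day 6 mouse D 2 of these genes passed. Fabp7, the fatty acid binding protein of glial progenitors, went the other way, at 11, 10.2, 6.56 and 9.64 CPM on day 4 and 12.1, 16.7, 16.8 and 22.1 CPM on day 6 (log2 fold change 0.85, adjusted p = 0.0111).

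Myelin genes were mixed. Of 21, 7 were lower and 2 higher at an adjusted p under 0.05, beside 1.80% and 2.33% of all genes, with a median of -0.15. Mobp (log2 fold change -0.44, adjusted p = 0.00248), Mal (log2 fold change -0.37, adjusted p = 0.005) and Mbp (log2 fold change -0.23, adjusted p = 0.0152) of the sheath and their regulator Myrf (log2 fold change -0.41, adjusted p = 0.00325) were lower, and Ugt8a (log2 fold change 0.37, adjusted p = 0.0207), which makes galactocerebroside, and Car2 (log2 fold change 0.23, adjusted p = 0.037) were higher. Apod, a lipocalin of oligodendrocytes and the list's called gene, was 85.3, 84.8, 154 and 68.8 CPM on day 4 and 52.4, 57.7, 63.5 and 55.3 CPM on day 6 (log2 fold change -0.79, adjusted p = 0.0227), and kept its adjusted p in 4 of the 8 fits that left out 1 mouse. The list had no called gene without day 4 mouse C or without any 1 of the day 6 mice, nor by DESeq2. Without day 6 mouse A or B 4 members of the list passed, and without day 6 mouse C or D 5. The lipocalin Ptgds, a prostaglandin synthase of glia and meninges, was 275, 262, 433 and 176 CPM on day 4 and 109.7, 128, 137 and 211 CPM on day 6, with overlap, and was called (log2 fold change -0.98, adjusted p = 0.0245), with its adjusted p kept in 4 of the 8 fits. The summed level of the 21 myelin genes was 4394 to 4972 CPM on day 4 and 4103 to 4440 CPM on day 6, a range that overlaps. Whether the amount of glial tissue in the dissections differed was not tested.

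Over all 25184 genes tested, 0.246% were called higher, and 2.33% were higher and 1.80% lower at an adjusted p under 0.05. An unadjusted p under 0.05 was reached by 4667 of them. Microglial genes gave 1 call of 26, Lpl, a lipoprotein lipase that neurons also express (34.4, 32.8, 24.5 and 36.4 CPM on day 4 and 52.7, 46.7, 58.8 and 47 CPM on day 6, log2 fold change 0.67, adjusted p = 0.0028), at a median of -0.03. None of 14 cytokines and chemokines and none of 18 genes of antigen presentation passed by edgeR or DESeq2, with 3 of each at an unadjusted p under 0.05, and 1 of each passed by edgeR without day 4 mouse D. Of 32 interferon-stimulated genes 1 was called, Gbp4 (1.9, 0.97, 0.899 and 1.19 CPM on day 4 and 2.63, 4.26, 1.56 and 2.49 CPM on day 6, log2 fold change 1.14, adjusted p = 0.0372), whose days overlapped and whose reads may be shared with Gbp8 and Gbp9. It was called in 2 of the 8 fits that left out 1 mouse, those without day 4 mouse A or day 6 mouse C. In endothelial genes 2 of 22 were higher, Kdr, the VEGF receptor (log2 fold change 0.35, adjusted p = 0.0159), among them, and Slc2a1, the glucose transporter of the blood-brain barrier, was lower (47.7, 43, 45.1 and 47.9 CPM on day 4 and 31.9, 34.2, 38.5 and 37.4 CPM on day 6, log2 fold change -0.39, adjusted p = 0.00307). Adamts1, a protease of the extracellular matrix, was called higher (log2 fold change 0.53, adjusted p = 0.00334).

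Neuronal markers and activity genes gave few calls, beside 0.246% of all genes called higher and 0.357% called lower. With any fold, a larger share of the activity genes than of all genes was higher. At an adjusted p under 0.05, 2.33% of all genes were higher and 1.80% lower. Of 29 immediate early genes 4 were higher and 1, Per1, lower: Jun was 78.3, 85.7, 74.6 and 74.9 CPM on day 4 and 96, 98.8, 98 and 104 CPM on day 6 (log2 fold change 0.33, adjusted p = 0.00169), and Homer1, a scaffold of glutamate receptors, was higher (log2 fold change 0.33, adjusted p = 0.00325). Without day 6 mouse B or C 3 of this list passed, and DESeq2 passed 5 higher and 1 lower. Of 30 delayed activity genes, growth factors and neuropeptides 4 were higher and 1, Tac1, lower, at a median log2 fold change of 0.004. DESeq2 passed 5 higher and 1 lower of these 30. By edgeR only 1 passed without day 6 mouse A or B, and with the spread of all 24 mice no gene of either list did. Pdzd2 was the 1 called gene of 18 dentate granule cell markers, at 158, 153, 152 and 116 CPM on day 4 and 96.2, 85.2, 103 and 85.4 CPM on day 6 (log2 fold change -0.66, adjusted p = 0.000751), while Stxbp6 (log2 fold change 0.28, adjusted p = 0.00647) and C1ql3 (log2 fold change 0.38, adjusted p = 0.0126) of the same list were higher. Of the 18, 4 passed in all, 11 without day 4 mouse D and 2 without day 6 mouse C. Among 25 pyramidal cell markers 3 were higher, led by Spink8 (log2 fold change 0.48, adjusted p = 0.00547), but 1 passed without day 4 mouse C or without day 6 mouse A, B or C, and 6 without day 4 mouse D. Of 21 interneuron markers 16 had a negative log2 fold change, 2 were lower and 1 higher, at a median of -0.10, and 1 in all passed without day 4 mouse B or without day 6 mouse A, B or C. Tac1, the substance P precursor, was called lower with overlapping days (3.27, 2.19, 1.64 and 3.98 CPM on day 4 and 1.27, 1.52, 1.06 and 1.91 CPM on day 6, log2 fold change -0.95, adjusted p = 0.0491), and kept its adjusted p in 2 of the 8 fits that left out 1 mouse. The member that was higher was the peptide gene Cck (log2 fold change 0.28, adjusted p = 0.0028).

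The receptors and channels that set excitability gave few calls, beside 0.246% of all genes called higher and 0.357% called lower. At an adjusted p under 0.05, 2.33% of all genes were higher and 1.80% lower. Grm2, a presynaptic metabotropic glutamate receptor, was 36.7, 40.2, 47.6 and 33.1 CPM on day 4 and 23.1, 27.9, 28.6 and 31.6 CPM on day 6 and was the called gene among 32 glutamate receptor genes (log2 fold change -0.52, adjusted p = 0.0127), though its fold fell short of the minimum without day 4 mouse C or day 6 mouse A. Of 41 voltage-gated potassium channel genes none passed by edgeR, with 11 at an unadjusted p under 0.05 and 4 passing by DESeq2. Of all 25184 genes tested, 4667 had an unadjusted p under 0.05. Kcnd2, which carries A-type current, was 204 to 232 CPM on day 4 and 238 to 261 CPM on day 6 (log2 fold change 0.16, adjusted p = 0.0526). Of 33 sodium and calcium channel genes none passed, with 8 at an unadjusted p under 0.05 and 3 passing by DESeq2, and of 14 GABA receptor genes none passed by either tool, with 2 at an unadjusted p under 0.05. Leaving out day 4 mouse D let 2 genes of each of these 3 lists pass, and leaving out day 6 mouse D 2 potassium channel genes. Among the other potassium channels Kcnt2 was higher (log2 fold change 0.24, adjusted p = 0.00861) and Kcnt1 lower (log2 fold change -0.33, adjusted p = 0.0111), both sodium-activated, in a list of 29 of which 3 passed, and 5 without day 4 mouse D. Hcn2, a channel of the hyperpolarization-activated current, was 78, 75, 77.5 and 78.3 CPM on day 4 and 86.4, 91.2, 90.1 and 89.5 CPM on day 6 (log2 fold change 0.20, adjusted p = 0.00636), and Pex5l, which encodes the HCN auxiliary subunit TRIP8b, was also higher (log2 fold change 0.17, adjusted p = 0.0463), but 1 gene of their list passed without day 4 mouse A or C or without any 1 of the day 6 mice. Kcnh4, a channel of the ELK family, was called lower (2.37 to 3.06 CPM on day 4 and 1.57 to 1.92 CPM on day 6, log2 fold change -0.70, adjusted p = 0.0105), though no list holds it.

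Of the 12 largest rises among called protein-coding genes with a mean of at least 1 CPM and no overlap, 5 have been given above with the lists (Chac1, Mthfd2, Slc7a3, Msmo1 and Mvd), and so has Fabp7. The largest was Gm8369, a predicted gene, at 0.755, 0.494, 0.433 and 0.232 CPM on day 4 and 1.75, 2.37, 2.66 and 2.59 CPM on day 6 (log2 fold change 2.28, adjusted p = 0.000349). Rgs13, a regulator of G protein signalling, was 0.421, 0.811, 0.481 and 0.563 CPM on day 4 and 1.69, 2.61, 2.38 and 2.16 CPM on day 6 (log2 fold change 1.95, adjusted p = 0.000238). Both were low genes of at most a few CPM. Mafa, a transcription factor known from pancreatic beta cells, was 1.19, 1.41, 1.22 and 0.928 CPM on day 4 and 2.59, 2.61, 3.79 and 2.74 CPM on day 6 (log2 fold change 1.29, adjusted p = 0.000916), and C2cd4a, a nuclear factor, was 0.746 to 1.09 CPM on day 4 and 1.71 to 1.98 CPM on day 6 (log2 fold change 1.01, adjusted p = 0.00371). The X-linked Xlr3b (0.513 to 1.87 CPM on day 4 and 2.98 to 3.58 CPM on day 6, log2 fold change 1.36, adjusted p = 0.00817) has near-identical copies, of which Xlr3a was called too (log2 fold change 1.80, adjusted p = 0.00735), and reads may be split between them. Upp1, which degrades uridine, was 0.746 to 1.95 CPM on day 4 and 2.23 to 3.04 CPM on day 6 (log2 fold change 0.85, adjusted p = 0.044) and kept its adjusted p in 2 of the 8 fits that left out 1 mouse.

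Beside Etnppl, Hif3a and Plin4, the 12 largest falls were the following. Thbs4, an astrocyte-secreted matrix protein, was 17.1, 17.8, 15.6 and 14.7 CPM on day 4 and 6.2, 6.94, 10.2 and 9.09 CPM on day 6 (log2 fold change -1.02, adjusted p = 0.000624). Plekhf1, a lysosomal adaptor, was 7.92, 7.74, 8.87 and 7.99 CPM on day 4 and 3.85, 3.77, 5.32 and 4.31 CPM on day 6 (log2 fold change -0.93, adjusted p = 0.000513), and Dusp26, a phosphatase of neurons, was 22, 16.4, 15.2 and 23 CPM on day 4 and 9.32, 12.8, 9.18 and 10.1 CPM on day 6 (log2 fold change -0.90, adjusted p = 0.0026). None of the 3 overlapped between the days. Tppp3, a tubulin-binding protein, Ddc, the decarboxylase of dopamine and serotonin synthesis, and Sspo, the secreted SCO-spondin, were called lower at log2 fold changes of -0.86, -0.87 and -0.97. At the lowest levels stood Gabrr2, a GABA receptor subunit outside the list of 14 (log2 fold change -1.10, adjusted p = 0.012), Tnnt2, a troponin (log2 fold change -1.005, adjusted p = 0.0201), and Nphs1, nephrin (log2 fold change -0.94, adjusted p = 0.00975). Tnnt2 kept its adjusted p in 5 of the 8 fits that left out 1 mouse.

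Of the 152 called genes, 117 were protein-coding, 50 higher and 67 lower, and 35 were of other types, mostly long noncoding transcripts at low levels. The called noncoding gene of the largest fold was Gm26812, at 0.0175, 0, 0.0642 and 0.133 CPM on day 4 and 0.471, 0.487, 0.434 and 0.3 CPM on day 6, so that 1 day 4 library had no read of it (log2 fold change 2.89, adjusted p = 0.00968). Some lie on the opposite strand of a called gene: 4833404L02Rik (log2 fold change -1.35, adjusted p = 0.0218) overlaps Hif3a and Gm44850 (log2 fold change -1.68, adjusted p = 0.0258) overlaps the integrin gene Itgad (log2 fold change -1.88, adjusted p = 0.0063), and with the strand setting of the counting not given in the sources used here, reads of such pairs cannot be told apart. In the 8 fits that left out 1 mouse, 4833404L02Rik kept its adjusted p in 5 and Gm44850 in 4. Among 17 neuronal and nuclear long noncoding RNAs 5 were lower at an adjusted p under 0.05 (1.80% of all genes were), led by the imprinted Meg3 at 2822, 2821, 3171 and 2899 CPM on day 4 and 2544, 2540, 2327 and 2528 CPM on day 6 (log2 fold change -0.25, adjusted p = 0.00458) and its neighbour Mirg (log2 fold change -0.24, adjusted p = 0.0111). Of this list 2 passed without day 6 mouse C, 8 without day 4 mouse D and 3 without any 1 of the other mice.

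Of the called genes, 82 kept an adjusted p under 0.05 in each of the 8 fits that left out 1 mouse and 2 kept it in none. The number called fell to 19, 14 of them higher, when all 24 mice gave the estimate of spread, and to 4 when edgeR tested against a log2 fold change of 0.5 itself.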

How the data were processed

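Per the labels and the study's methods, the authors prepared stranded libraries from rRNA-depleted hippocampal total RNA. By the submitters' processing notes and the methods, they trimmed reads (cutadapt 1.16.5), aligned them to mm10 (STAR 2.7.2b) and counted them per GENCODE gene (featureCounts 1.6.4). The deposited values are raw counts, 1 library per mouse. Strand and multimapping settings of the counting are not given in the sources used here. Gene names and coordinates were taken from GENCODE M21 on the same build (55144 of 55385 identifiers found).

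Day 6 was compared with day 4 by edgeR 4.0.16 (filterByExpr, TMM, quasi-likelihood test, Benjamini-Hochberg adjustment) in R 4.3.3 on 8 mice. DESeq2 1.42.0 and other designs, filters, covariates and thresholds were alternatives. Leaving out the mice of extreme Ttr or Xist was added after the data were seen. In simulated counts of this comparison (24788 genes), edgeR recovered 77% of 1.5-fold and 98% of 2-fold changes (100 of each), with 10 false calls. Recovered here means called, with the fold minimum as well as the adjusted p. The changes were placed only in genes above a minimum mean count, so these shares do not cover genes of low counts. The mice were simulated as independent draws.

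The mice, the 59 gene lists and the tests were chosen with earlier results of these data known, so list counts are descriptions. The naming rule took the 12 largest changes in each direction among called protein-coding genes without overlap and with a mean of at least 1 CPM, up to 4 called members of each list, or its 2 of smallest p, and Tsc1 and Camk2a. Other genes were chosen after their values were seen. Some members of the sterol list are counted in its totals but not reported here by name. Replicates are separate animals.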

Additional observations from a re-analysis of the deposited data

Results flagged for a closer look

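In each day's 4 mice, every called gene that the naming rule took was checked for a mouse that stands apart by Dixon's test at its 95% critical value. Of 88 groups checked, 5 held such a mouse, and chance alone gives about 1 in 20. Day 4 mouse C was high for Sgk1, at 155 CPM. Day 6 mouse C, another animal, was high for Mafa (3.79 CPM), Sult1a1 (6.93 CPM) and Tppp3 (13.2 CPM). Day 4 mouse D was low for Pdzd2, at 116 CPM. For none of these genes did the 4 and 4 mice overlap, and the cause was not tested.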

How the results depend on the processing

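No called gene, and no passing gene that the naming rule took, turned its direction in the refits checked. The other passing genes were not checked for direction. The count of 152 called genes (62 higher, 90 lower) stayed within 1.5 times under DESeq2 (177), DESeq2 size factors (152), a filter of more than 10 counts in at least 4 of the 8 mice (157), a GC correction (159), thinned counts (159), Ttr or Xist as a covariate (165 and 196) and without chromosomes X and Y (146). It was 19 (14 higher) with edgeR on all 24 mice, 255 (102 higher) with no filter on low counts, 1042 (588 higher) with no minimum fold, 33 (14 higher) at a log2 fold change over 1, 712 (241 higher) at an unadjusted p, 4 (3 higher) with glmTreat, and 58 (35 higher) without day 4 mouse C and day 6 mouse A, whose Ttr was lowest. Leaving out 1 mouse at a time gave 98 to 221, lowest without day 4 mouse C and highest without day 4 mouse D. The 14 called sterol genes were 8 on all 24 mice and 0 at a log2 fold change over 1 or with glmTreat (22 of the list had an unadjusted p under 0.05 in edgeR, and DESeq2 called 14), and 11 to 15 with a mouse left out. The 8 called ATF4 genes were 2 on all 24 mice, 13 (12 higher) with no minimum fold, 2 at a log2 fold change over 1, 1 with glmTreat, 5 without the mice of lowest Ttr and 5 to 11 with a mouse left out. The 6 glucocorticoid genes were 3, 12 (11 lower), 2 and 1 in the same first 4 settings, and 5 to 10 with a mouse left out. The replicate letters do not pair the mice (correlations of same-letter deviations -0.149 to 0.0394), and the fit with the letter as a block called 118 genes, 109 of them among the 152. With the block and the GC correction together it called 114. The causes were not tested. With 4 mice a day and these depths, simulated 1.5-fold changes were missed in part. A recovered change also had to pass the fold minimum, which lies not far below 1.5-fold. Genes near 1 CPM carry the least precise folds.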

Other observations

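Beyond the programs described, markers of thalamus and habenula and of striatum and septum had mostly negative log2 fold changes, while those of neocortex and subiculum were mixed. Of 16 thalamus and habenula markers 15 were negative, at a median of -0.30, and of 14 striatum and septum markers 13 were, at a median of -0.42. By edgeR none of the thalamic genes passed, with 9 at an unadjusted p under 0.05 (4667 of all 25184 genes were) and none by DESeq2, and 1 striatal gene, Tac1, did. Without day 4 mouse D 4 thalamic genes passed, and Tac1 kept its adjusted p in 2 of the 8 fits that left out 1 mouse. Their summed levels were 367 to 480 CPM on day 4 and 344 to 359 CPM on day 6 for thalamus, and 146 to 217 and 137 to 152 CPM for striatum. Of 18 neocortex and subiculum markers 8 were positive and 10 negative, at a median of -0.07. None of them passed by edgeR (3 at an unadjusted p under 0.05, 1 by DESeq2), and their sums were 730 to 809 and 716 to 768 CPM. Among 14 ependymal markers none had an unadjusted p under 0.05 and none passed by DESeq2.

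For the lists that follow, 2.33% of all genes tested were higher and 1.80% lower at an adjusted p under 0.05. An unadjusted p under 0.05 was reached by 4667 of the 25184 genes. Genes of cell division stood on the higher side on day 6 without passing: 24 of 30 were positive at a median of 0.17, 9 had an unadjusted p under 0.05, none passed by edgeR and 2 passed by DESeq2. Ccnd2, a cyclin of the G1 phase, was 96.8, 85.3, 84.4 and 87.7 CPM on day 4 and 107, 97.3, 104 and 96.1 CPM on day 6 (log2 fold change 0.18, adjusted p = 0.0603). Of 18 replication-dependent histone genes 3 were higher, led by Hist1h1c (log2 fold change 0.30, adjusted p = 0.0117), but none passed without day 6 mouse C, 1 without day 4 mouse A or C or day 6 mouse B or D, and 5 without day 4 mouse D. Tubb3, a neuronal tubulin, was 139.6, 143, 132 and 160.2 CPM on day 4 and 173, 184, 180.3 and 173 CPM on day 6 and was higher (log2 fold change 0.29, adjusted p = 0.00632), the 1 gene of 20 of adult neurogenesis to pass. In glycolysis, 3 of 28 genes were higher, Ldha (log2 fold change 0.27, adjusted p = 0.00761), Pgk1 (log2 fold change 0.19, adjusted p = 0.0154) and Tpi1 (log2 fold change 0.19, adjusted p = 0.0188), and 3 were lower, Slc2a1, Pdk4 and Aldoc (log2 fold change -0.32, adjusted p = 0.00727). Of 30 genes of vesicle release 3 were higher, led by Syn2 (log2 fold change 0.21, adjusted p = 0.00861), and 1 lower, Vamp2 (log2 fold change -0.27, adjusted p = 0.0148), and of 30 axon guidance genes 3 were higher, led by Epha4 (log2 fold change 0.21, adjusted p = 0.0158), and 1 lower. Of the axon guidance genes none passed without day 6 mouse C, 1 without day 4 mouse C or day 6 mouse A and 2 without day 4 mouse B, and of the vesicle release genes 2 without day 6 mouse C. Without day 4 mouse D 10 glycolysis genes and 2 neurogenesis genes passed. Among 21 genes of p53 and apoptosis 1 was higher, Ccng1 (log2 fold change 0.26, adjusted p = 0.00777), and 1 lower, Bcl2l1 (log2 fold change -0.23, adjusted p = 0.00861). Cspg4 (log2 fold change -0.20, adjusted p = 0.0494) was lower among 19 genes of oligodendrocyte precursors, and of 23 pericyte and fibroblast genes 1 was lower. The precursor list kept a passing gene only without day 4 mouse D, and the pericyte list had none without day 4 mouse C or day 6 mouse B or C and 3 without day 4 mouse D.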
